A study of Mus musculus with 29 samples.

Results

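The comparison described here is the one between livers of obese mice that received both interventions of the study, a switch from high-fat diet to chow and intermittent fasting, and livers of mice that received neither. It takes the 4 liver libraries labelled CC-IF and the 4 labelled HFD, which are 8 of the 29 libraries analysed, and the 11365 of 24346 genes whose mean was at least 1 FPKM over those 8 libraries and which are not small nucleolar or microRNA genes (Snora, Snord and Mir names). FPKM counts sequenced fragments per kilobase of transcript and relative to all those mapped in the library. All mice were male C57BL/6J, an inbred strain that becomes obese on fatty food, and all had eaten high-fat diet for 10 weeks. For the next 4 weeks, CC-IF mice ate control chow with intermittent fasting, HFD-IF mice ate high-fat diet and fasted every other day, CC mice ate control chow freely, and HFD mice went on eating high-fat diet freely. There were 2 HFD-IF and 4 CC liver libraries, used where the 2 interventions are taken apart. The labels call the samples of a group biological replicates. The sources used here do not give the ages of the mice, the hour of tissue collection or the time since the last meal, so the regimen and the feeding state at collection cannot be told apart. Polyadenylated RNA was selected from 1 µg of total RNA of about 20 mg of tissue and read as pairs of 125 nt.

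The liver stores and exports fat when food is plentiful and burns fatty acids when it is not. In the fed state insulin and the transcription factors SREBP1 and SREBP2 drive the genes that make fatty acids and cholesterol. In fasting, the fatty acid receptor PPAR alpha switches on genes for fatty acid oxidation and ketone formation, while glucagon and glucocorticoids raise glucose output. The endoplasmic reticulum of the hepatocyte folds the large amount of protein that the liver secretes, and its unfolded protein response adjusts the chaperones to that load. The circadian clock of the liver is reset by meal times.

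The 8 libraries held 15087 to 15615 genes above 0, and their depth, estimated from low values read as whole fragments, was 8.95 M to 11.2 M (mega) fragments. The estimate is approximate, since 65.8% to 72.6% of those values were within 0.2 of whole numbers. Chance would put 40% there at a depth fixed in advance. Each depth was picked to bring these same values near whole numbers, so the chance share is higher here, by an amount not determined. No 2 libraries of a group were copies of each other, as at least 99.99% of their values differed in every pair. On the first principal component, with 44.9% of the variance of log2(FPKM + 1), the CC-IF libraries lay from -32.8 to -21.6 and the HFD libraries from 16.1 to 33.8. HFD library 1 lay apart from the other HFD libraries on the second component (29.2, against -19.98 to -3.91, with 12.9% of the variance). Without this library the calls lost included those of Alb, Dcn, Egr1, Folr2, Ifit1, Lum, Mcm7, Ndufb3 and Shmt2, and Dbp gained one. Libraries carry the index of their column, which starts at 0. Some zeros in the table cannot be read as absent RNA. Alb, the gene for albumin and one of the most abundant liver transcripts, was listed at 0 in all 4 CC-IF livers and in HFD library 3, and at 43965, 34135 and 41774 FPKM in the other HFD livers. It counts among the lower genes, but no change is read from it. In all, 18 of the genes tested were listed at 0 in at least 1 of the 8 libraries and above 50 FPKM in another. In a fit without them 1500 genes were higher and 1301 lower.

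CC-IF livers differed from HFD livers in 2779 genes, 24.5% of those tested (limma on log2(FPKM + 1), adjusted p under 0.05), with 1485 higher (13.1%) and 1294 lower (11.4%). The shares of 13.1% and 11.4% are the reference for every list count against HFD livers below. The change was at least 2-fold for 160 higher genes (1.41%) and 178 lower genes (1.57%). The groups did not overlap in 27.9% of the genes tested, and the median log2 change over all genes was 0.0062. The 10 largest rises were those of Cyp4a14, Acot3, Cyp4a10, Usp2, Cyp2a4, Cyp4a31, Acot1, Lepr, Por and Mt1, which encode fatty acid hydroxylases, acyl-CoA thioesterases, a ubiquitin protease, a steroid hydroxylase, the leptin receptor, the electron donor of microsomal cytochrome P450 enzymes and a metal-binding protein. The 10 largest falls were those of Mup1, Mup9, Mup12, Serpina1e, Cfd, Serpina4-ps1, Sqle, Selenbp2, Aqp8 and Idi1, which encode major urinary proteins, a serine protease inhibitor, complement factor D, a pseudogene transcript, squalene epoxidase, a selenium-binding protein, a water channel and an enzyme of the isoprenoid pathway. Cyp2a4, Mup1, Mup9 and Cfd are among the 18 genes with zeros that cannot be read as absent RNA, so the sizes of their changes are uncertain. Sharing of reads between near-identical copies makes the values of single Cyp4a, Acot, Cyp2a, Mup, Serpina1, Selenbp and Hspa1 genes uncertain.

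**Figure D1:**
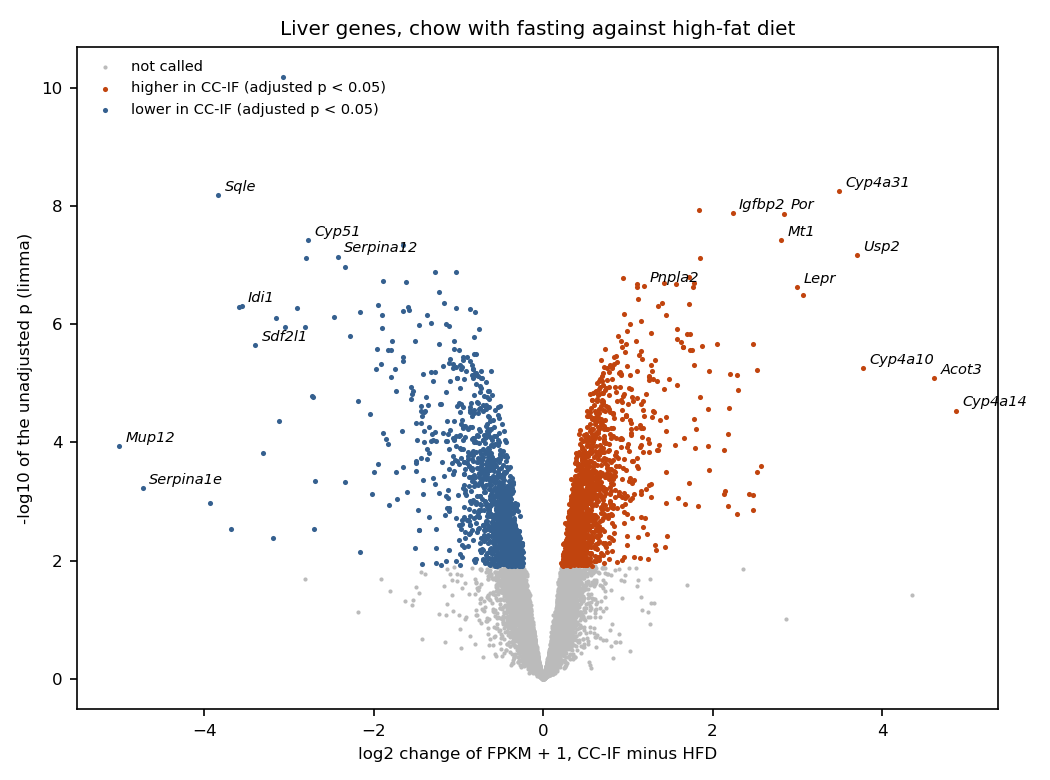
Each point is a gene, with its log2 change of FPKM + 1 (CC-IF minus HFD) on the x axis and -log10 of the unadjusted limma p on the y axis; red points are higher and blue points lower in CC-IF livers at an adjusted p under 0.05, and grey points were not called. The 18 genes listed at 0 in a library and above 50 FPKM in another are not drawn. Cyp4a14, Acot3 and Cyp4a10 lie farthest right among the labelled genes, and Mup12 and Serpina1e farthest left.

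Most genes for burning fatty acids rose. Of 41 genes of fatty acid oxidation and PPAR alpha targets, 27 rose, 2 fell and 12 did not pass, with a median of 0.605, against 13.1% higher and 11.4% lower among all genes. The members with the largest changes were microsomal fatty acid hydroxylases. Cyp4a14 (chr4:115486200-115496142, minus strand, GRCm38) had 2200.2, 2058, 3048 and 3164 FPKM in the CC-IF livers, against 109, 16.4, 112 and 267 FPKM in the HFD livers (4.88 ± 0.67, adjusted p = 0.00113). The lowest CC-IF liver was thus many times the highest HFD liver, and HFD library 1 was the lowest of all 8. Acot3, which releases fatty acids from acyl-CoA in peroxisomes, had 147, 93.6, 80.9 and 178 FPKM in the CC-IF livers, against 2.2, 0.796, 6.6 and 12 FPKM in the HFD livers (4.62 ± 0.54, adjusted p = 0.000551). Cyp4a10, Cyp4a31 and Acot1 rose by 3.78, 3.49 and 3.06. Ehhadh, the bifunctional enzyme of peroxisomal beta oxidation, had 232, 277, 290.5 and 369 FPKM in the CC-IF livers, against 95.2, 67, 104 and 125 FPKM in the HFD livers (1.58 ± 0.19, adjusted p = 0.000643). The mitochondrial part moved less. Acadm, medium-chain acyl-CoA dehydrogenase, had 308, 338, 306 and 348 FPKM in the CC-IF livers, against 215, 185, 217 and 222 FPKM in the HFD livers (0.63 ± 0.087, adjusted p = 0.00115), and Cpt1a, which admits fatty acids to mitochondria, had 292, 299, 223 and 252 FPKM in the CC-IF livers, against 184, 169.9, 191 and 202 FPKM in the HFD livers (0.50 ± 0.11, adjusted p = 0.00884). Neither overlapped between the groups, but Cpt1a did not pass in a fit of all 14 liver libraries (adjusted p = 0.0635). Ppara itself, the gene for the receptor, rose by 0.54, and it too did not pass in that fit (adjusted p = 0.0709). Acaa1a and Eci2, for the thiolase and an isomerase of peroxisomal oxidation, rose by 0.75 and 0.82. The 2 members that fell were Plin2, which coats lipid droplets, and Fabp1, the fatty acid carrier of the hepatocyte. Plin2 had 138, 137, 157 and 232 FPKM in the CC-IF livers, against 343, 296, 346 and 344 FPKM in the HFD livers (-1.03 ± 0.16, adjusted p = 0.00206). Fabp1 had 9353, 10114, 10380.0 and 10670.4 FPKM in the CC-IF livers, against 15724, 11177, 18996 and 16173 FPKM in the HFD livers (-0.59 ± 0.17, adjusted p = 0.0334), and the count of 2 lower was 1 without any single library except HFD library 1. Without HFD library 1 the median of the 41 genes was 0.473. Pairs of AGGTCA set 1 base apart, the form that PPAR alpha binds with RXR, were searched as exact matches on both strands. They were in 0 of 32 promoter windows of the list and in 0.0481% of all windows. The windows are those of RefSeq (GRCm38.p6), from 250 bases before to 50 after the start of transcription. Exact pairs are so rare that 0 of 32 cannot show whether these genes lack the element.

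Of 8 genes of ketone body synthesis and transport 2 rose, among them the monocarboxylate carrier Slc16a7 (1.22), and 1 fell, the carrier Slc16a6 (-1.03); the median was 0.111. Among 21 tested genes of lipid droplets and lipolysis 4 rose and 4 fell, against 13.1% higher and 11.4% lower among all genes. Those that rose included the lipases Pnpla2, which takes the first fatty acid from triglyceride, and Mgll, which takes the last, and the droplet protein Fitm2 (0.72 and 0.76 for Mgll and Fitm2). Pnpla2 had 73.2, 68.9, 62.5 and 67.7 FPKM in the CC-IF livers, against 27.9, 26.3, 29.5 and 34.2 FPKM in the HFD livers (1.19 ± 0.094, adjusted p = 9.68e-05), with the groups well apart. The count of 4 lower was 2 without CC-IF library 3. Fgf21, the liver hormone that PPAR alpha induces and which was chosen after its values were seen, had 6.81, 3.51, 4.37 and 9.78 FPKM in the CC-IF livers, against 5.12, 8.55, 12.5 and 7.94 FPKM in the HFD livers, with overlapping groups (-0.45 ± 0.30, adjusted p = 0.296).

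Many genes that make fatty acids fell, with 1 abundant exception. Of 24 tested genes of fatty acid and triglyceride synthesis 12 fell, 3 rose and 9 did not pass, with a median of -0.764. Fasn, fatty acid synthase, had 50.8, 33.4, 21.2 and 28.3 FPKM in the CC-IF livers, against 222, 115, 222 and 382 FPKM in the HFD livers (-2.72 ± 0.35, adjusted p = 0.000812). Acly, which supplies cytosolic acetyl-CoA, had 48.3, 48.1, 33.6 and 38.6 FPKM in the CC-IF livers, against 147, 115, 176 and 258 FPKM in the HFD livers (-1.97 ± 0.22, adjusted p = 0.000483). Acacb, which makes malonyl-CoA at the mitochondrial surface (-1.83), Thrsp, a lipogenic regulator (-1.82), and Gpam, the first enzyme of triglyceride assembly (-1.07), also fell. In each of these the highest CC-IF liver was below the lowest HFD liver. Scd1, the desaturase that makes oleic acid and the most abundant member of the list, was chosen after its values were seen. It had 7338, 10245, 6569 and 8425 FPKM in the CC-IF livers, against 2437, 1483, 4704 and 6058 FPKM in the HFD livers (1.33 ± 0.39, adjusted p = 0.0329; chr19:44394455-44407879, minus strand). The groups did not overlap, but the call was close to the threshold: without any 1 of the 4 CC-IF libraries or HFD library 0 the adjusted p lay between 0.0528 and 0.0875. With Scd1 included, the summed level of the list ran from 8510 to 12600 FPKM in CC-IF livers and from 4210 to 11000 FPKM in HFD livers although most of its called members fell. Srebf1, which encodes SREBP1, had 102, 60.3, 33.1 and 39.8 FPKM in the CC-IF livers, against 156, 79.8, 78.6 and 146 FPKM in the HFD livers, which overlap (-1.02 ± 0.35, adjusted p = 0.0614). It passed in the fit of 14 libraries (adjusted p = 0.0477), with array weights (0.0297), with a replicate block (0.0255) and without CC-IF library 0 (0.0155).

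Cholesterol synthesis was the pathway list with the lowest median, -1.565 over 25 tested genes, of which 23 fell and 0 rose. Sqle, squalene epoxidase (chr15:59315077-59331192, plus strand), had 1.36, 1.17, 1.01 and 1.06 FPKM in the CC-IF livers, against 19.5, 35.3, 43.2 and 25.8 FPKM in the HFD livers (-3.83 ± 0.21, adjusted p = 2.46e-05). Idi1, which isomerises isopentenyl diphosphate, had 12.5, 6.28, 3.93 and 4.97 FPKM in the CC-IF livers, against 58.1, 88.2, 123 and 83.5 FPKM in the HFD livers (-3.56 ± 0.31, adjusted p = 0.000147). Those CC-IF levels are a small part of the HFD levels in every library. Fdps and Mvd, of the steps before squalene, fell by 3.15 and 2.90, and Cyp51 and Dhcr7, of the sterol steps after it, by 2.77 and 2.80. Hmgcs1, which starts the pathway, fell by 2.34. Srebf2, the gene for the main activator of the pathway, had 15.1, 13.8, 11.8 and 14.1 FPKM in the CC-IF livers, against 22.7, 25.5, 27.1 and 22.8 FPKM in the HFD livers (-0.80 ± 0.096, adjusted p = 0.000619), a narrow spread in both groups. Aqp8, a water channel outside the lists, had 10.1, 18.3, 7.88 and 13.3 FPKM in the CC-IF livers, against 156, 83.7, 191 and 219.9 FPKM in the HFD livers (-3.58 ± 0.31, adjusted p = 0.000147).

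The promoters of these genes share a short element. The same promoter windows were found for 18 of the 26 listed cholesterol genes, and 17 of them (94.4%) held CCAAT on either strand, as did 41.1% of the 27025 genes with a window. The element is bound by NF-Y, a known partner of SREBP. Of all 3709 tested genes with CCAAT in the window 517 were lower and 438 higher, with a median of -0.019. The windows of Idi1 (chr13:8885356-8885655, plus strand) and Cyp51 (chr5:4104648-4104947, minus strand) are shown as examples from an early and a late step of the pathway, with CCAAT or its reverse complement in capitals.
Idi1: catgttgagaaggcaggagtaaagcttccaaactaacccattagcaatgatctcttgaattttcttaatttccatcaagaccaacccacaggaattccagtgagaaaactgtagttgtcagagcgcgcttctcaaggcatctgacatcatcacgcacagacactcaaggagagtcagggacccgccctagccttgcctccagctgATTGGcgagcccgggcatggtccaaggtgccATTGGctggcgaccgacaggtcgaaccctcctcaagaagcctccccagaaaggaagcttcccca
Cyp51: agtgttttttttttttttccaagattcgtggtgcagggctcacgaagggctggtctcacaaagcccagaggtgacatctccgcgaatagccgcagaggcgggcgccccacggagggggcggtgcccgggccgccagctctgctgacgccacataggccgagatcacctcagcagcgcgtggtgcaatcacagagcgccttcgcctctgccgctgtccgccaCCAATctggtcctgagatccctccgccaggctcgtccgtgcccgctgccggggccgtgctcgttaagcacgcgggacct

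**Figure D2:**
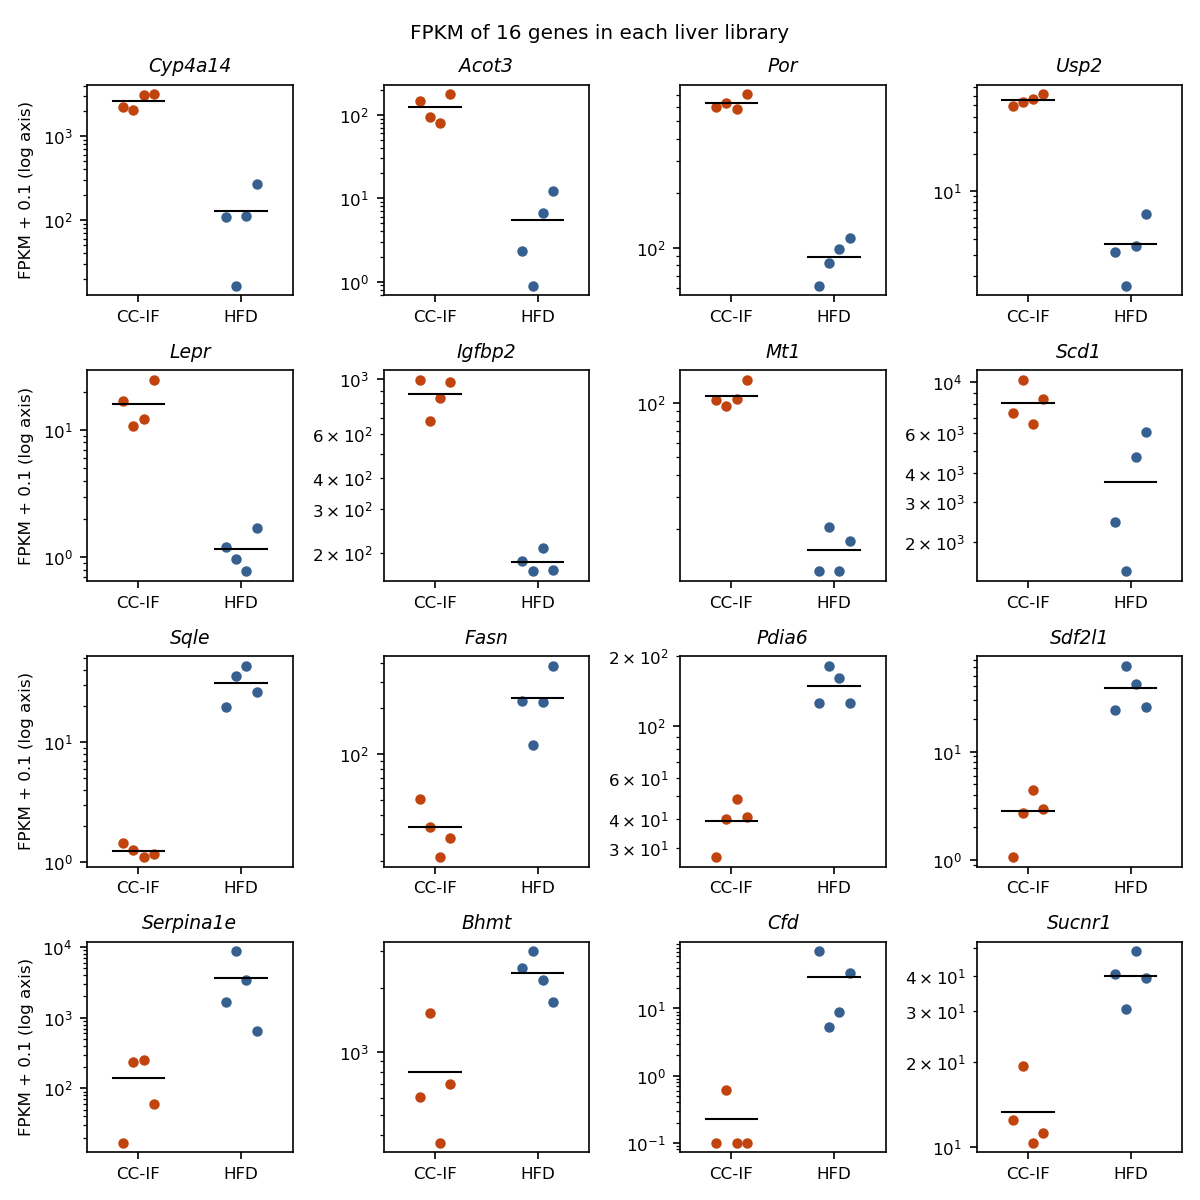
FPKM + 0.1 on a log axis for 16 genes, with 1 point per library, CC-IF livers in red and HFD livers in blue, and a line at the mean of the 4 libraries. The 2 groups do not overlap in any of the 16 genes; Scd1 is high on the scale in both groups, and 3 CC-IF libraries of Cfd are listed at 0.

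Chaperones of the endoplasmic reticulum fell together. Of 22 genes of folding and the unfolded protein response 18 fell, 0 rose and 4 did not pass, with a median of -1.282, against 11.4% lower among all genes. Hspa5, which encodes the central chaperone BiP, had 97.8, 167, 211 and 174 FPKM in the CC-IF livers, against 419.6, 892, 683 and 410.1 FPKM in the HFD livers (-1.86 ± 0.29, adjusted p = 0.0022). Calr, the calcium-binding chaperone calreticulin, had 133, 193, 225 and 180.0 FPKM in the CC-IF livers, against 618, 842, 707 and 567 FPKM in the HFD livers (-1.91 ± 0.17, adjusted p = 0.000157). HFD libraries 0 and 3 were the lower HFD values of both genes, and both lay above every CC-IF library. Pdia6, a protein disulfide isomerase (chr12:17266545-17284770, plus strand), had 27.3, 39.9, 48.6 and 40.8 FPKM in the CC-IF livers, against 125, 182, 161 and 125 FPKM in the HFD livers (-1.91 ± 0.18, adjusted p = 0.000216). Sdf2l1, a cofactor of BiP, had the largest change of the list, with 0.962, 2.62, 4.34 and 2.88 FPKM in the CC-IF livers, against 24.2, 61.9, 41.6 and 25.8 FPKM in the HFD livers (-3.40 ± 0.35, adjusted p = 0.000313). Manf and Creld2, secreted proteins of the same response, fell by 2.19 and 2.02, Hsp90b1 by 1.35, and Sec61b, a subunit of the translocation channel, by 0.97. Of the 14 tested genes of the amino acid stress response that ATF4 drives, 1 rose and 3 fell. Those that fell were Chac1 (-0.88), Atf5 (-0.84) and Shmt2 (-0.34). Cebpb was the one that rose (0.93), with overlapping groups and no call without any of 5 libraries. Shmt2 lost its call without any 1 of the 8 libraries except CC-IF library 1.

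The ER stress element is a sequence through which ATF6 and NF-Y induce chaperone genes. Its full form, CCAAT, any 9 bases and CCACG, was searched on both strands and overlaps the CCAAT search above. It was in 8 of 19 windows of the list (42.1%), those of Hspa5, Hsp90b1, Calr, Canx, Pdia6, Dnajc3, Creld2 and Syvn1, and in 37 of all 27025 windows (0.137%). All 8 fell. Of the 15 tested genes of the whole table that hold it, 12 were lower and 0 higher, with a median of -1.263. Of the 12, 8 are the list members above. Among the 7 outside the list were Derl3, of the machinery that exports misfolded proteins, Acacb, and Alg12, a mannosyltransferase of glycan assembly, which fell by 2.69, 1.83 and 0.84. Hnrnpa3 also fell (-0.40), and Acnat2, Pan2 and Xlr3a did not pass (0.09, -0.23 and -0.57); Derl3 was listed at 0 in 1 CC-IF liver. The windows of 4 members are shown because they carry the element and belong to genes with large falls. They are those of Hspa5 (chr2:34771840-34772139, plus strand), Calr (chr8:84846882-84847181, minus strand), Pdia6 (chr12:17266339-17266638, plus strand) and Creld2 (chr15:88819396-88819695, plus strand), with the element or its reverse complement in capitals.
Hspa5: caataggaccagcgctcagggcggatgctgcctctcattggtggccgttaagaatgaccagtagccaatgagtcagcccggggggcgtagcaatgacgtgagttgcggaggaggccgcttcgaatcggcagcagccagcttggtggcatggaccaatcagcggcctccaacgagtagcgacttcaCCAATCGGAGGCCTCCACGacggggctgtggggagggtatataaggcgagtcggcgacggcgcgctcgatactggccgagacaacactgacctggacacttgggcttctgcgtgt
Calr: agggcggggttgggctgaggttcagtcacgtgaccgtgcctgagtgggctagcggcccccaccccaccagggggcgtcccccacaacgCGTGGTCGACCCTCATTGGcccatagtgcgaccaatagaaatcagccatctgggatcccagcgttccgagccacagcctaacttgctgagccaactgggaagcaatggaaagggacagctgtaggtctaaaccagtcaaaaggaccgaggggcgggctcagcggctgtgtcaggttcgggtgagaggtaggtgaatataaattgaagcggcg
Pdia6: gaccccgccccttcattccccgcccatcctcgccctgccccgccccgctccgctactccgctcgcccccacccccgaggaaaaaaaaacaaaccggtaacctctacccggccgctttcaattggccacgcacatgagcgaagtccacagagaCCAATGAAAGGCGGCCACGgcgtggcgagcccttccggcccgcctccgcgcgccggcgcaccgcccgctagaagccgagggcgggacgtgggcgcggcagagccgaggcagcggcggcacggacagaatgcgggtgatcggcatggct
Creld2: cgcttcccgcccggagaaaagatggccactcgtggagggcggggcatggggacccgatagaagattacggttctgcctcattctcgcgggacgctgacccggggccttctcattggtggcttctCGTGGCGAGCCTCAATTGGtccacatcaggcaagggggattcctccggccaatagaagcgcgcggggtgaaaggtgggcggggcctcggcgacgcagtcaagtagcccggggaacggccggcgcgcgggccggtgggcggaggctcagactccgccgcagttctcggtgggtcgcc

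Most clock genes that changed were higher. Of 18 tested clock genes 10 rose and 1 fell, with a median of 0.912. Usp2, a ubiquitin protease under clock control (chr9:44067021-44095627, plus strand), had 49.1, 52.6, 56 and 61.7 FPKM in the CC-IF livers, against 3.02, 1.57, 3.44 and 6.32 FPKM in the HFD livers (3.70 ± 0.26, adjusted p = 6.74e-05). The CC-IF values lie close together and far above the HFD values. Per3, a repressor of the clock, had 20.4, 14.6, 13.3 and 14 FPKM in the CC-IF livers, against 2.12, 0.771, 4.94 and 4.11 FPKM in the HFD livers (2.19 ± 0.33, adjusted p = 0.002), and Per2 had 17.6, 22.5, 29.3 and 28.7 FPKM in the CC-IF livers, against 6.3, 4.96, 6.28 and 8.6 FPKM in the HFD livers (1.75 ± 0.18, adjusted p = 0.000331). Per1 rose by 1.26. The output activators Tef and Hlf rose by 1.80 and 1.02. Dbp, the third of that family, had 67.5, 42.4, 50.7 and 41.6 FPKM in the CC-IF livers, against 6.98, 0.552, 28.1 and 25.3 FPKM in the HFD livers; its groups did not overlap, but it did not pass (2.36 ± 0.78, adjusted p = 0.0536). The adjusted p was 0.0326 without HFD library 1, where the log2 change was 1.47, 0.0327 and 0.0342 without HFD library 2 and 3 (2.88 and 2.83), and 0.0499 among genes with a mean of at least 5 FPKM. Ciart, a repressor of the clock, had 8.54, 9.36, 12.8 and 13.4 FPKM in the CC-IF livers, against 0.487, 0.39, 1.46 and 2.54 FPKM in the HFD livers (2.52 ± 0.29, adjusted p = 0.000491). Arntl, which encodes the activator BMAL1, moved the other way, with 1.27, 2.24, 2.31 and 3.74 FPKM in the CC-IF livers, against 11.9, 15, 6.34 and 3.47 FPKM in the HFD livers (-1.47 ± 0.38, adjusted p = 0.0197). Its groups overlap at HFD library 3, and without HFD library 0 it did not pass (-1.30, adjusted p = 0.0578). The hour of collection is not given in the sources used here, so these differences cannot be assigned to phase or level.

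The E-box CACGTG, through which BMAL1 and CLOCK act, was in 5 of 17 windows of the clock list (29.4%), those of Per1, Cry1, Tef, Ciart and Bhlhe41, and in 8.09% of all windows. Of all 1046 tested genes with an E-box 161 were higher and 129 lower, with a median of 0.022. The D-box TTATGTAA was in 1 of the 17 (Per3, 5.88%) and in 1.11% of all windows. Ciart is shown (chr3:95882179-95882478, minus strand) because its window holds 3 E-boxes, given in capitals.
Ciart: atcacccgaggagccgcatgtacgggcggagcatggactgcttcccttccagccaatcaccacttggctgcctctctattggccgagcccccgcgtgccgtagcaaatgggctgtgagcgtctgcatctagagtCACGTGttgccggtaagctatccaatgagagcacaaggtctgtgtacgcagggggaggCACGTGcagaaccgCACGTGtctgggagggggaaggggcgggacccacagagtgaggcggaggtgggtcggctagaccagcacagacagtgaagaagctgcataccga

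**Figure D3:**
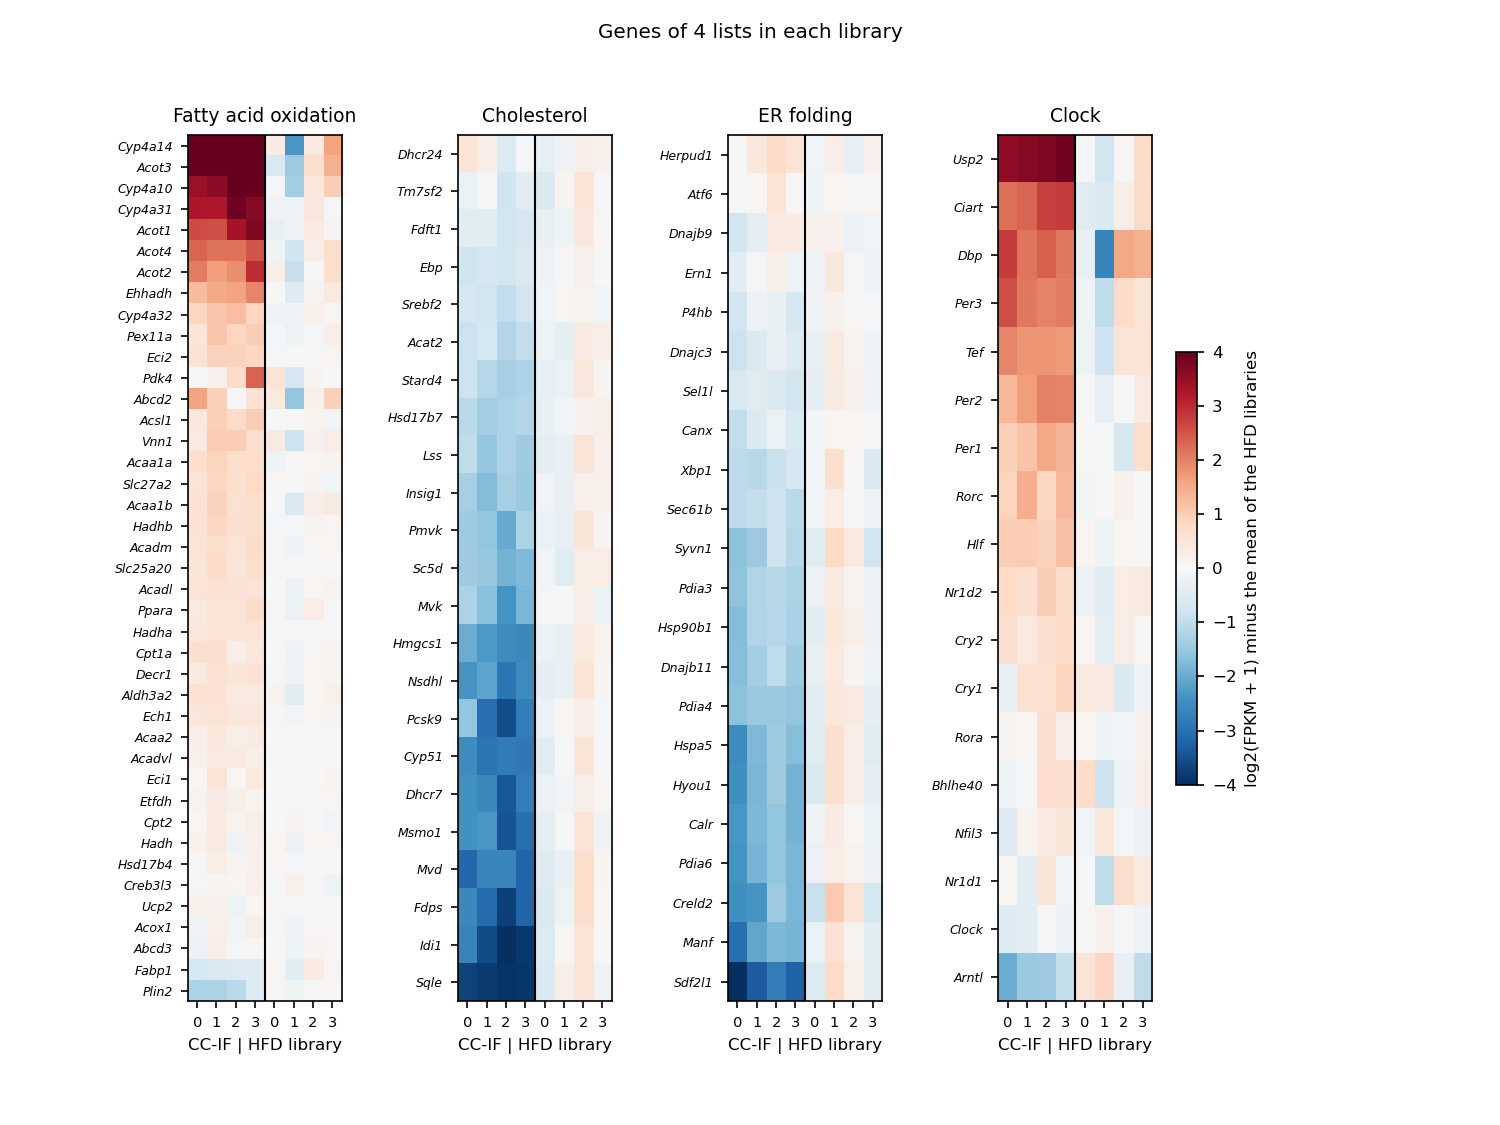
Colour gives log2(FPKM + 1) minus the mean of the 4 HFD libraries (red higher, blue lower, saturated at 4) for genes of 4 lists, in the 4 CC-IF libraries left of the line and the 4 HFD libraries right of it, numbered by column index. The fatty acid oxidation panel is red at the top in all 4 CC-IF libraries, the cholesterol and endoplasmic reticulum panels are blue nearly throughout, and in the clock panel Arntl is blue below the red Per, Tef and Usp2 rows.

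Drug and steroid metabolising enzymes rose in part. Of 32 tested genes 13 rose, 1 fell (Cyp1a2) and 18 did not pass, with a median of 0.439. Por, the electron donor of microsomal cytochrome P450 enzymes (chr5:135670033-135735326, plus strand), had 602, 633, 583 and 707 FPKM in the CC-IF livers, against 61.7, 82.5, 98.3 and 114 FPKM in the HFD livers (2.84 ± 0.17, adjusted p = 2.55e-05). The lowest CC-IF liver was several times the highest HFD liver. Cyp3a11, the main mouse enzyme of its subfamily, had 2417, 1679.9, 1449.6 and 1609 FPKM in the CC-IF livers, against 589, 101, 272 and 457 FPKM in the HFD livers (2.57 ± 0.46, adjusted p = 0.00417). Cyp2a5, a coumarin hydroxylase, had 759, 857, 496 and 931 FPKM in the CC-IF livers, against 198, 132, 239 and 208 FPKM in the HFD livers (1.96 ± 0.22, adjusted p = 0.000499), and Nr1i3, the xenobiotic receptor CAR, had 113, 122, 114 and 121 FPKM in the CC-IF livers, against 55.7, 41.9, 54.7 and 58.4 FPKM in the HFD livers (1.15 ± 0.11, adjusted p = 0.000187). Ces1d, a carboxylesterase, rose by 1.57. Of 20 genes of bile acid synthesis and transport 7 rose and 3 fell, against 13.1% and 11.4% of all genes. The median was 0.153. Hsd3b7, an enzyme of bile acid synthesis, fell by 1.62, and Abcb11, the bile salt export pump, had 123, 113, 149 and 119 FPKM in the CC-IF livers, against 221, 216, 219.8 and 215 FPKM in the HFD livers (-0.80 ± 0.092, adjusted p = 0.000519). Abcg5, of the sterol exporter, rose by 0.95 and Akr1d1, a reductase of the pathway, by 0.76. The 7 were 4 without CC-IF library 3 or HFD library 0, and 3 in the fit of 14 libraries. Cyp7a1, the rate-limiting enzyme of bile acid synthesis, had 119, 176, 29.5 and 50.3 FPKM in the CC-IF livers, against 7.6, 50.1, 38.9 and 16.2 FPKM in the HFD livers, with overlap (1.69 ± 0.65, adjusted p = 0.0832). Among the alternatives it passed only with array weights (adjusted p = 0.0427) and without CC-IF library 2 (0.0472).

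Some genes that differ between the sexes in mouse liver were among those with the largest changes. Of 24 male-biased and growth hormone responsive genes 5 fell, 2 rose and 17 did not pass, with a median of -0.643. Among all genes 11.4% were lower and 13.1% higher. Serpina1e (chr12:103946931-103958975, minus strand) had 16.8, 236, 251 and 59.5 FPKM in the CC-IF livers, against 1655, 8681, 3361 and 650.0 FPKM in the HFD livers (-4.72 ± 0.95, adjusted p = 0.00688). Elovl3, a fatty acid elongase, had 6.82, 47.4, 33.9 and 16.2 FPKM in the CC-IF livers, against 259, 427, 139 and 140.5 FPKM in the HFD livers (-3.31 ± 0.55, adjusted p = 0.00302). Serpina1e varied more than 10-fold within either group, whereas Serpina12, which encodes vaspin, varied little: 2.94, 5.89, 4.38 and 4.12 FPKM in the CC-IF livers, against 28, 33.3, 24.9 and 23.1 FPKM in the HFD livers (-2.42 ± 0.17, adjusted p = 6.74e-05). Selenbp2 and Nudt7 fell by 3.68 and 1.95. The members of the list that rose, Igf1 and Igfals, did not pass without several single libraries. Mup1, a major urinary protein outside the list, had 0, 26.5, 71.4 and 5.29 FPKM in the CC-IF livers, against 379, 1485, 537 and 121 FPKM in the HFD livers, and in HFD library 1, where it was highest, the near-identical Mup7, Mup11 and Mup14 were listed at 0. Of 15 female-biased genes 6 passed the filter on low values, of which 4 rose, including Acot3, and 1 fell (Cyp17a1). Cyp17a1 did not pass in the fit of 14 libraries (adjusted p = 0.104). Most of the 15 are near 0 in males, so the 6 are not read as a set. Fmo2, a flavin monooxygenase, had 29.6, 15.2, 15 and 31.2 FPKM in the CC-IF livers, against 5.87, 2.28, 3.26 and 5.03 FPKM in the HFD livers (2.20 ± 0.30, adjusted p = 0.00109). Cux2, a female-biased repressor, had 15.7, 1.25, 3.16 and 9.19 FPKM in the CC-IF livers, against 0.0765, 0.183, 0.13 and 0.133 FPKM in the HFD livers (2.48 ± 0.52, adjusted p = 0.00801), with every HFD liver near 0. Cyp2b9 had 201, 85.4, 3.62 and 196 FPKM in the CC-IF livers, against 44.4, 0.175, 0.622 and 63 FPKM in the HFD livers and did not pass (2.87 ± 1.57, adjusted p = 0.208). Among the alternatives Cyp2b9 passed only with a replicate block on the column number (adjusted p = 0.0391).

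Amino acid genes moved in both directions. Of 33 genes of nitrogen disposal (the urea cycle and the breakdown of amino acids) 8 rose and 6 fell, with a median of 0.101. Among all genes 13.1% were higher and 11.4% lower. The 8 were 3 to 5, close to the share of all genes, without CC-IF library 0, 1 or 3 or HFD library 0, 2 or 3. Asl of the urea cycle had 488, 560.0, 426 and 573 FPKM in the CC-IF livers, against 259, 301, 269 and 317 FPKM in the HFD livers (0.83 ± 0.11, adjusted p = 0.00117). Agxt, which breaks down glyoxylate, had 92.3, 88.9, 86.6 and 72 FPKM in the CC-IF livers, against 189.8, 181, 151 and 188 FPKM in the HFD livers (-1.05 ± 0.11, adjusted p = 0.000292). Kynu and Haao of tryptophan breakdown fell by 0.90 and 0.61. Otc, also of the urea cycle, fell by 0.38. In the methionine cycle 3 of 16 rose and 3 fell. Mat1a, which makes S-adenosylmethionine, had 1923, 2075, 1662 and 2048 FPKM in the CC-IF livers, against 1034, 1034, 1124 and 1255 FPKM in the HFD livers (0.79 ± 0.11, adjusted p = 0.00115), and Ahcy rose by 0.92. Bhmt, which remethylates homocysteine with betaine, had 608, 1533, 368 and 702 FPKM in the CC-IF livers, against 2507, 3004, 2189 and 1725 FPKM in the HFD livers (-1.72 ± 0.37, adjusted p = 0.00891), and Cbs, which removes homocysteine, fell by 1.12.

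Of 15 genes of gluconeogenesis 6 rose and 0 fell, with a median of 0.306. Pck1, the gene for phosphoenolpyruvate carboxykinase, had 2235, 2809.7, 2447 and 2178 FPKM in the CC-IF livers, against 1142, 1428, 791 and 1534 FPKM in the HFD livers (1.02 ± 0.20, adjusted p = 0.00572). Slc37a4, the carrier of glucose 6-phosphate, rose by 0.59, Foxo1, a transcription factor restrained by insulin, by 0.76, and Pck2 by 0.80; Pck2 did not pass in the fit of 14 libraries (adjusted p = 0.0983). Of 19 tested genes of insulin signalling and glycogen 6 rose and 2 fell, and the 2 were 1 without any of 5 libraries. Igfbp2, a binding protein of insulin-like growth factors (chr1:72824503-72852474, plus strand), had 996, 682, 838 and 976 FPKM in the CC-IF livers, against 185, 168, 208 and 170.3 FPKM in the HFD livers (2.24 ± 0.13, adjusted p = 2.55e-05). Its 4 HFD values fall within a narrow band. Gys2, liver glycogen synthase, rose by 0.77, Insr, the insulin receptor, by 0.42, and Pygl, glycogen phosphorylase, fell by 0.73. Lepr, the leptin receptor (chr4:101717404-101815352, plus strand), had 16.7, 10.6, 12.2 and 24.7 FPKM in the CC-IF livers, against 1.11, 0.867, 0.675 and 1.59 FPKM in the HFD livers (3.00 ± 0.24, adjusted p = 9.68e-05). The lowest CC-IF value is several times the highest HFD value.

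Succinate, which the study's title names, is both a fuel of the citric acid cycle and a signal read by the receptor Sucnr1. Sucnr1 (chr3:60081869-60087566, plus strand) had 12.4, 19.2, 10.3 and 11.1 FPKM in the CC-IF livers, against 40.4, 30.6, 48.7 and 39.3 FPKM in the HFD livers (-1.54 ± 0.19, adjusted p = 0.000744), with the highest CC-IF liver below the lowest HFD liver. Succinate dehydrogenase, which oxidises succinate, changed in 1 of its 4 subunits. Sdhd, a membrane anchor, had 208, 216, 165 and 197 FPKM in the CC-IF livers, against 143, 136, 149 and 158 FPKM in the HFD livers (0.41 ± 0.098, adjusted p = 0.0145). Sdha, Sdhb and Sdhc had log2 changes of -0.08, -0.08 and 0.05 (adjusted p = 0.523, 0.596 and 0.707), and their groups overlapped. Of the 16 tested genes of the succinate list 4 fell, against 11.4% of all genes. Beside Sucnr1 these were Slc22a7, an organic anion transporter (-3.12 ± 0.45, adjusted p = 0.00144), Slc13a3, a sodium-coupled dicarboxylate carrier (-0.74 ± 0.15, adjusted p = 0.0082), and Slc25a1, the mitochondrial citrate carrier (-0.55 ± 0.11, adjusted p = 0.00777). Slc22a7 had 0.765, 5.33, 4.51 and 1.73 FPKM in the CC-IF livers, against 28.5, 62.4, 24.4 and 19.1 FPKM in the HFD livers. Slc25a10, the mitochondrial dicarboxylate carrier, had 82.5, 83, 61.3 and 70.7 FPKM in the CC-IF livers, against 57.8, 37.4, 57.5 and 68.8 FPKM in the HFD livers and did not pass (0.44 ± 0.18, adjusted p = 0.0938). Of 25 genes of the citric acid cycle 5 rose and 4 fell, against 13.1% higher and 11.4% lower among all genes. Idh2 (0.93) and Ogdh (0.42) were among those that rose, and the cytosolic Idh1 (-0.62) was among those that fell. The 4 that fell were 2 without any 1 of 6 libraries. Among 75 subunits of oxidative phosphorylation 4 rose and 2 fell, under the share of all genes, with a median of 0.018. The 2 that fell, Ndufb3 and Ndufs8, were both lost without CC-IF library 0 or 2 or HFD library 0, 1 or 2.

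**Figure D4:**
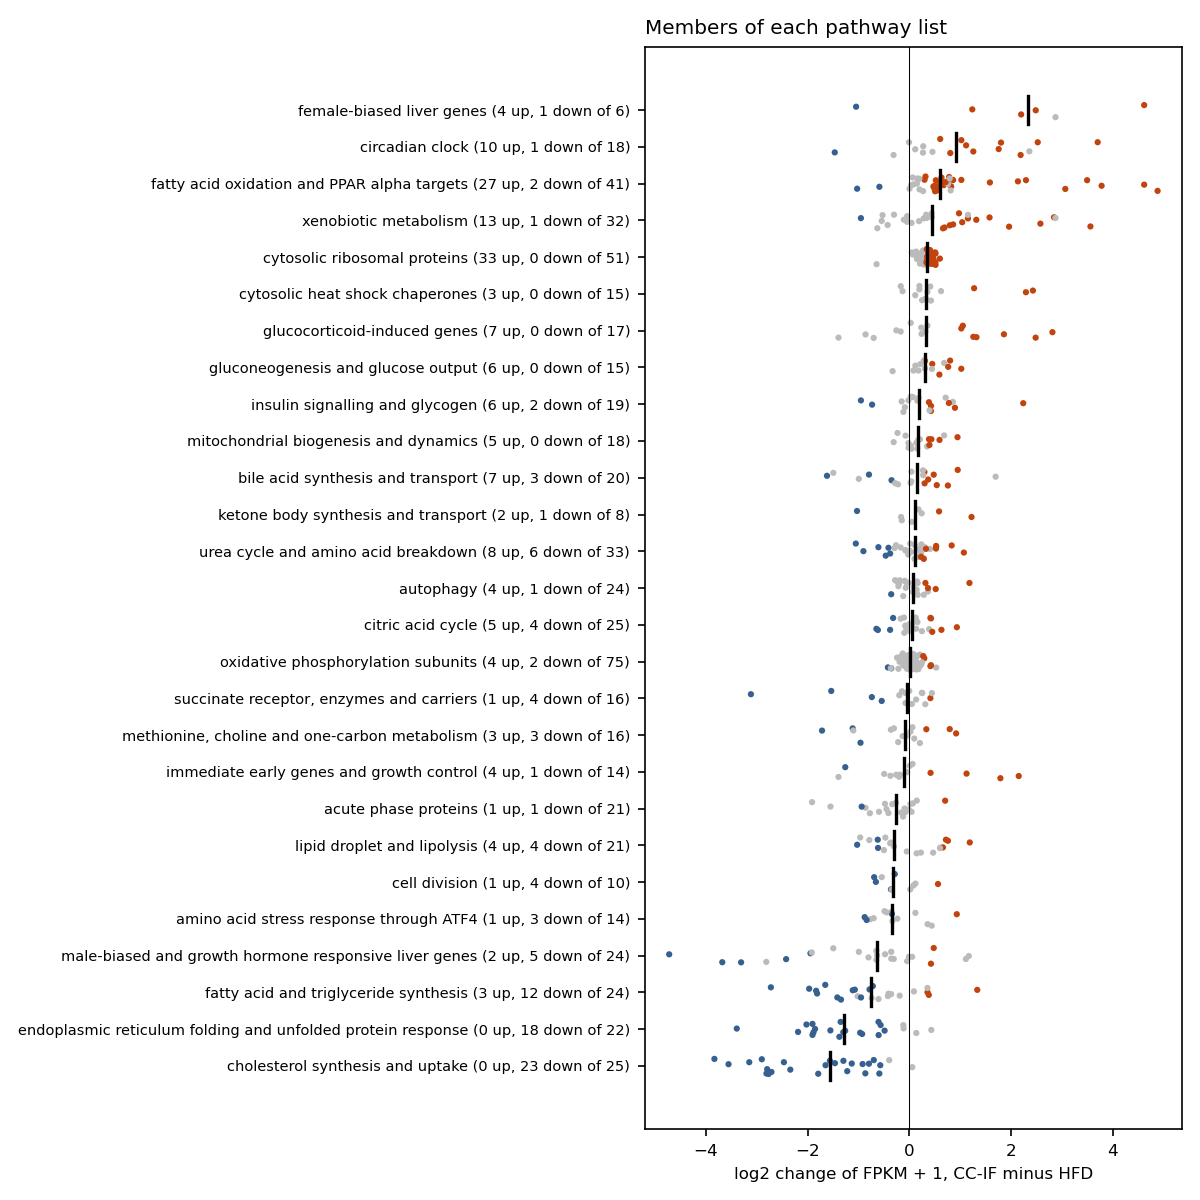
Each point is a tested member of a pathway list at its log2 change of FPKM + 1 (CC-IF minus HFD), red where it rose and blue where it fell at an adjusted p under 0.05 and grey where it was not called; the bar is the list's median, and the label gives the called members in each direction of the members tested. Cholesterol synthesis and endoplasmic reticulum folding lie at the bottom, the clock and fatty acid oxidation near the top, and oxidative phosphorylation around 0.

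Ribosomal protein genes were slightly higher: 33 of 51 rose and 0 fell, with a median of 0.354. Rps9 had 463, 469, 466 and 485 FPKM in the CC-IF livers, against 297, 356, 337 and 332 FPKM in the HFD livers (0.51 ± 0.079, adjusted p = 0.0021). The count of 33 was 13 without CC-IF library 3 or HFD library 0, 15 without HFD library 3 and 19 without CC-IF library 1. Of 17 genes that glucocorticoids induce 7 rose and 0 fell. Mt1, a metallothionein (chr8:94179082-94180327, plus strand), had 104, 96, 105 and 135 FPKM in the CC-IF livers, against 11.5, 20.4, 11.5 and 17 FPKM in the HFD livers (2.81 ± 0.18, adjusted p = 5.37e-05), and Fkbp5, a cofactor of the glucocorticoid receptor, had 28.8, 32.2, 43.9 and 50.1 FPKM in the CC-IF livers, against 6.66, 9.99, 8.55 and 15.4 FPKM in the HFD livers (1.86 ± 0.24, adjusted p = 0.000842). Mt2 rose by 2.48. Of 15 genes of heat shock chaperones and cold-inducible proteins 3 rose, against 13.1% of all genes. They were Hspa1a and Hspa1b, near-identical copies of the inducible HSP70 (2.29 and 2.43), and Rbm3, an RNA-binding protein induced by cooling. Rbm3 had 58.3, 59.6, 51.8 and 55.7 FPKM in the CC-IF livers, against 27.5, 18, 19.4 and 27.7 FPKM in the HFD livers (1.27 ± 0.14, adjusted p = 0.000465). Hspa1b spread widely within the CC-IF group, with 43.3, 105, 263 and 129.7 FPKM in the CC-IF livers, against 10.4, 32.4, 27.1 and 17 FPKM in the HFD livers.

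Of 18 genes of mitochondrial biogenesis and dynamics 5 rose, led by the nuclear receptor Esrra, which had 23.7, 21.9, 23.1 and 22.4 FPKM in the CC-IF livers, against 11, 12.2, 11.2 and 11 FPKM in the HFD livers (0.95 ± 0.072, adjusted p = 9.68e-05); Sirt1 and Sirt3, for NAD-dependent deacylases, rose by 0.59 and 0.43, and Mfn1, for mitochondrial fusion, by 0.39. Of 24 autophagy genes 4 rose, close to the 13.1% higher among all genes, a count that was 2 without CC-IF library 1 or 2 or HFD library 0 or 2, and 1 fell, Sqstm1 (-0.36), which lost its call without CC-IF library 0 or 1 or HFD library 2 or 3. Bnip3, a mitophagy receptor, rose by 1.18 and Map1lc3b by 0.52. Of 21 tested acute phase genes C3, complement C3, rose by 0.70 and Steap4 fell by 0.94; without single libraries 0 to 4 acute phase genes fell. Among 14 immediate early and growth control genes 4 rose, including Gadd45b (2.15), Btg3 (1.79) and Myc (1.12), which lost its call without HFD library 2 or 3, and 1 fell, Egr1 (-1.26), named after its values were seen and not called without CC-IF library 2 or 3 or HFD library 0 or 1; the median was -0.113. Of 10 tested cell division genes 1 rose (Birc5) and 4 fell, Mcm2 (-0.69), Mcm4 (-0.66), Mcm7 (-0.36) and Pcna (-0.29), of the replication machinery; without HFD library 0 the counts were 0 and 1.

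Markers of the cells that a piece of liver can hold were read beside these results. In bulk tissue, fewer cells of a type and less RNA per cell cannot be told apart. The hepatocyte marker Ttr was abundant in every library, with 5465, 6361, 5023 and 5727 FPKM in the CC-IF livers, against 8085, 6185, 7835 and 8397 FPKM in the HFD livers, and its call (-0.43) was lost without any 1 of 6 libraries; Apoa1 had a log2 change of -0.31 (adjusted p = 0.109). Of the 10 hepatocyte markers 2 were called lower, Alb and Ttr, and 0 higher, with a median of -0.174. Among those not called, Hnf4a, Apob, Trf and Asgr1 had log2 changes of 0.46, 0.22, 0.14 and 0.14. Fgb, Apoc3 and Serpina1a, also not called, had changes of -0.45, -0.24 and -0.10. Of 12 Kupffer cell markers 2 fell, Clec4f and Folr2 (-0.60 and -0.73), against 11.4% lower among all genes. The log2 changes of 11 of the 12 were negative, with a median of -0.426. Summed levels were 126 to 185 FPKM in CC-IF livers and 162 to 277 FPKM in HFD livers. Neither Clec4f nor Folr2 was called in the fit of 14 libraries or without HFD library 0. None of the 5 tested markers of infiltrating macrophages or the 6 of antigen presentation passed, and their sums overlapped (64.5 to 110 FPKM and 68.9 to 149 FPKM in CC-IF livers, 71.9 to 95.6 FPKM and 99 to 119 FPKM in HFD livers). Of 13 endothelial markers 1 fell, Cdh5 (-0.41). Of 12 tested stellate cell and fibroblast markers 2 rose, Dcn and Lum, and 1 fell, Tagln, and each lost its call without some library. None of the 4 tested cholangiocyte markers, and neither the single neutrophil marker nor any lymphocyte marker, passed. Lymphocyte markers were all under the filter on low values and summed to 0.904 to 2.14 FPKM in CC-IF livers and 3.22 to 4.21 FPKM in HFD livers. Of 17 tested interferon response genes 4 fell, among them Ifit1 (-0.61), Stat2 (-0.35) and Irgm1 (-0.86), a count that was 0 without CC-IF library 3. The log2 changes of 13 of the 17 were negative, with a median of -0.181. The erythroid marker Alas2 fell by 0.83; the erythroid list summed to 27.0 to 44.8 FPKM in CC-IF livers and 51.7 to 82.4 FPKM in HFD livers, nearly all of it Alas2.

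Of 4 tested adipocyte markers 3 fell, Cfd, Car3 and Fabp4, and Plin4 had a log2 change of 0.61 and did not pass. Cfd, complement factor D, was listed at 0 in 3 CC-IF livers and at 0.521 FPKM in the fourth, against 70.9, 5.29, 8.84 and 34 FPKM in the HFD livers. Car3, a carbonic anhydrase that hepatocytes also make, had 877, 1797, 630.1 and 649.8 FPKM in the CC-IF livers, against 2514, 2108, 2743 and 2267 FPKM in the HFD livers (-1.42 ± 0.29, adjusted p = 0.00782). Fabp4 fell by 0.62 and lost its call without any of 4 libraries. The list of 8 summed to 661 to 1820 FPKM in CC-IF livers and 2140 to 2780 FPKM in HFD livers, mostly Car3, and its other 4 defining markers, Adipoq, Lep, Plin1 and Retn, were listed at 0 in all 8 libraries. Cela1, an elastase of the pancreas list, had 2.01, 2.28, 2.52 and 0.971 FPKM in the CC-IF livers, against 10.1, 20.4, 8.49 and 7.68 FPKM in the HFD livers (-2.04 ± 0.28, adjusted p = 0.00123), while 3 of the 11 pancreas markers were at 0 in all 8 libraries. The part of other cell types in the changes above was not tested.

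The 2 interventions could be taken apart in part. Against CC livers, which had the chow without the fasting, CC-IF livers differed in 2755 genes, 24.2% of those tested, with 1646 higher (14.5%) and 1109 lower (9.76%) in a fit of all 14 liver libraries. This comparison shares the CC-IF libraries with the one above, so the 2 are given side by side. Against CC, 33 of the 41 genes of fatty acid oxidation rose, 18 of the 25 cholesterol genes and 20 of the 22 endoplasmic reticulum genes fell, and 11 of the 18 clock genes rose. Against HFD those counts were 27, 23, 18 and 10, in the separate fit of the 8 libraries. Ribosomal protein genes gave 4 higher against CC and 33 against HFD, and genes of nitrogen disposal 21 higher against CC and 8 against HFD. The counts against HFD are again from the fit of 8 libraries. In the fit of 14 libraries the nitrogen disposal count against HFD was 5. Whether a list's count differs between the 2 comparisons was not tested.

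Single genes followed 3 orders of the 4 regimens. In the first, CC livers lay with HFD livers and CC-IF livers apart. Usp2 had 49.1, 52.6, 56 and 61.7 FPKM in the CC-IF livers, 12.8 and 14.8 FPKM in the HFD-IF livers, 1.8, 1.22, 1.84 and 2.31 FPKM in the CC livers and 3.02, 1.57, 3.44 and 6.32 FPKM in the HFD livers, and Por had 602, 633, 583 and 707 FPKM in the CC-IF livers, 246 and 265 FPKM in the HFD-IF livers, 44.5, 50.9, 94.6 and 110.4 FPKM in the CC livers and 61.7, 82.5, 98.3 and 114 FPKM in the HFD livers. The HFD-IF livers lay between the CC-IF livers and the others for both genes. Their CC-IF minus CC changes were 4.33 ± 0.24, adjusted p = 8.09e-07 for Usp2 and 3.15 ± 0.26, adjusted p = 1.17e-05 for Por. In the second, CC livers lay with CC-IF livers. Bhmt had 608, 1533, 368 and 702 FPKM in the CC-IF livers, 1011 and 1932 FPKM in the HFD-IF livers, 478, 671, 607 and 473 FPKM in the CC livers and 2507, 3004, 2189 and 1725 FPKM in the HFD livers, and its CC-IF minus CC change did not pass (0.35 ± 0.35, adjusted p = 0.51). Cfd had 0.0868, 0.205, 0 and 0.0796 FPKM in the CC livers, beside the values listed for CC-IF livers. As 3 of those CC-IF values are zeros that cannot be read as absent RNA, its place in this order is uncertain. In the third, CC livers lay on the far side of HFD livers. Cyp2a5 had 759, 857, 496 and 931 FPKM in the CC-IF livers, 271 and 282 FPKM in the HFD-IF livers, 39.3, 42.3, 76.7 and 78.9 FPKM in the CC livers and 198, 132, 239 and 208 FPKM in the HFD livers (CC-IF minus CC 3.69 ± 0.26, adjusted p = 5.49e-06). Mat1a had 1923, 2075, 1662 and 2048 FPKM in the CC-IF livers, 1644 and 1657 FPKM in the HFD-IF livers, 488, 552, 601 and 790.3 FPKM in the CC livers and 1034, 1034, 1124 and 1255 FPKM in the HFD livers (CC-IF minus CC 1.68 ± 0.14, adjusted p = 1.17e-05). Asl followed the same order, with CC-IF minus CC 1.45 ± 0.12, adjusted p = 1.17e-05. Lepr lay outside these orders, since its CC values of 3.97, 6.21, 5.7 and 10.5 FPKM lay between those of CC-IF and HFD livers, with 1.04 and 6.68 FPKM in the HFD-IF livers (CC-IF minus CC 1.17 ± 0.37, adjusted p = 0.0358). These genes were chosen after their values were seen or for their change against HFD, and the orders are a description.

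Against HFD-IF livers, which had the fasting without the chow, CC-IF livers differed in 69 genes (0.607%), 49 higher (0.431%) and 20 lower (0.176%). With 2 HFD-IF libraries this comparison had little power, and the count depended on them: it was 11 without HFD-IF library 1, which lies apart from the other liver libraries with 16343 genes above 0, and 1696 without HFD-IF library 0, where the single library left has to be taken to vary as other groups do. HFD-IF library 1 also had the highest depth estimate of the 14 liver libraries, 14.95 M fragments. None of the genes of the fatty acid oxidation, cholesterol or endoplasmic reticulum lists passed, with medians of 0.156, 0.059 and -0.393. Of the clock genes 2 were higher, Usp2 (1.91 ± 0.29, adjusted p = 0.0296) and Ciart (1.68 ± 0.32, adjusted p = 0.0404), with a median of 0.653. The lists of gluconeogenesis (Slc37a4 and Foxo1) and nitrogen disposal (Asl and Arg1) also had 2 higher genes each, with medians of 0.388 and 0.221. Sqle, for example, had 1.36, 1.17, 1.01 and 1.06 FPKM in the CC-IF livers and 2.17 and 0.905 FPKM in the HFD-IF livers, and Pdia6 27.3, 39.9, 48.6 and 40.8 FPKM in the CC-IF livers and 72.2 and 47.8 FPKM in the HFD-IF livers. Scd1 had 7338, 10245, 6569 and 8425 FPKM in the CC-IF livers, against 2580.3 and 1686 FPKM in the HFD-IF livers (1.94 ± 0.43, adjusted p = 0.0559).

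**Figure D5:**
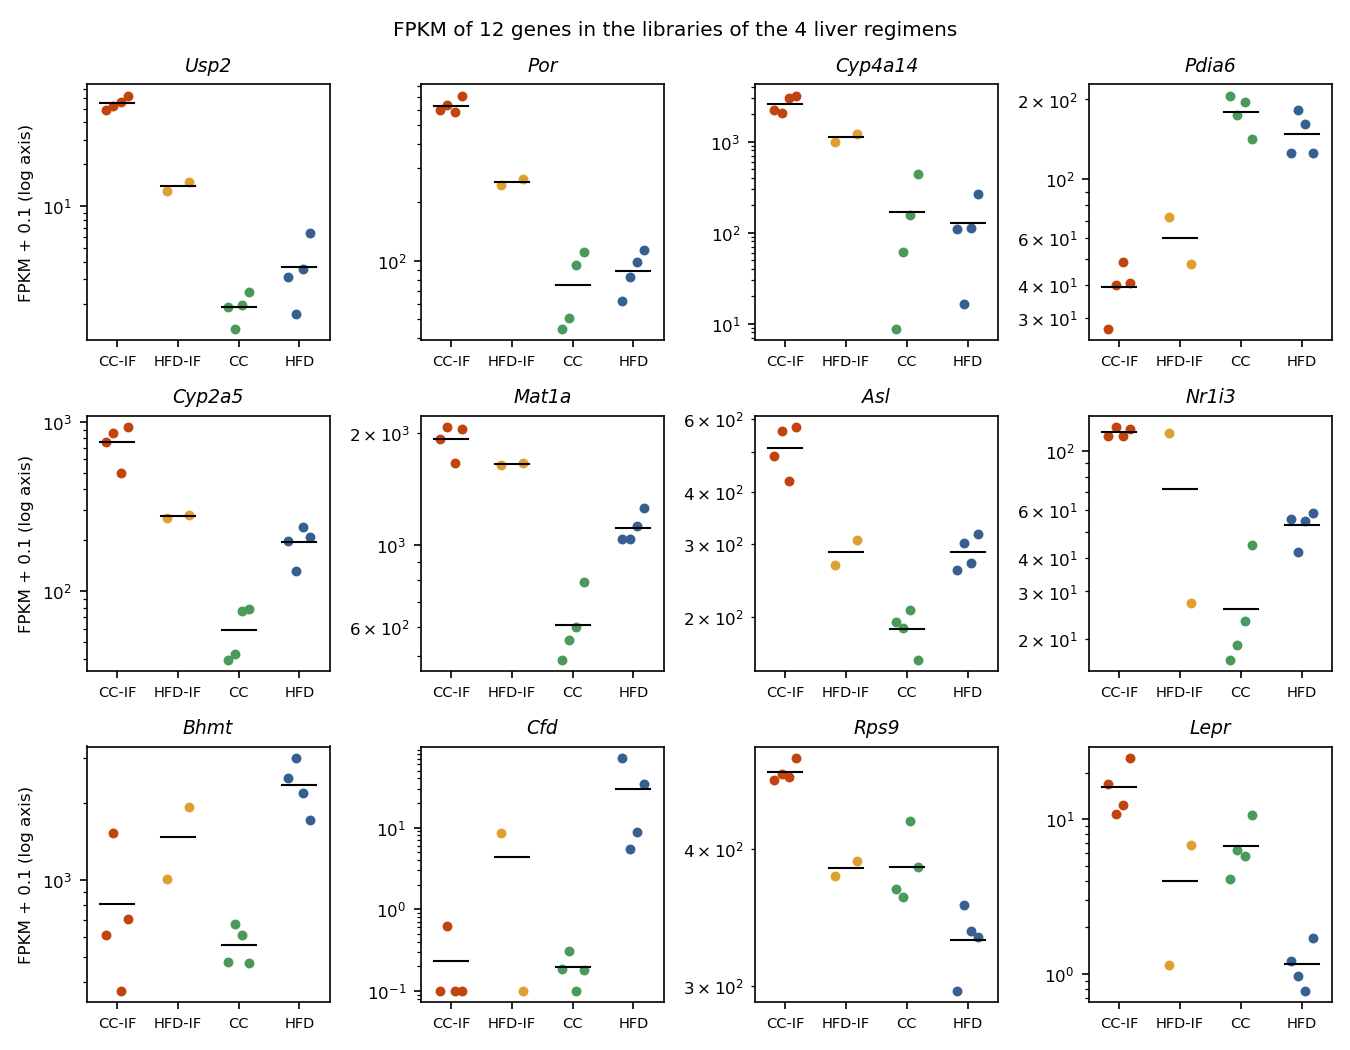
FPKM + 0.1 on a log axis for 12 genes in the 14 liver libraries, with 1 point per library, a line at the group mean, and the regimens in the order CC-IF, HFD-IF, CC and HFD. Usp2, Por, Cyp4a14 and Pdia6 have CC beside HFD, Bhmt and Cfd have CC beside CC-IF, Rps9 and Lepr have CC between CC-IF and HFD, and Cyp2a5, Mat1a, Asl and Nr1i3 have CC on the far side of HFD.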

How the data were processed

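Messenger RNA of mouse liver was measured by RNA sequencing. The authors deposited 1 table of FPKM values for all libraries; the submitters' processing notes name Trimmomatic 0.39, FastQC 0.11.9, Bowtie2 2.3.5.1 and TopHat2 2.1.1, and GRCm38 (mm10). How FPKM was computed and scaled, and from which annotation, is not given in the sources used here. The series design states 32 samples, of which 29 were analysed here. Columns were tied to a regimen by name; they count from 0 and the sample titles from 1, so no column was tied to a numbered sample, and 0 columns were left without a group.

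Values were taken as log2(FPKM + 1), a scale that understates changes of low genes. Genes with a mean of at least 1 FPKM over the 8 libraries were kept, without Snora, Snord and Mir genes, which dropped 58 genes by name. The fit was limma 3.58.1 in R 4.3.3 with an intensity trend, group as the only term, two-sided p-values adjusted by Benjamini and Hochberg over all genes tested, and a threshold of 0.05. Contrasts of CC-IF with CC and HFD-IF came from 1 fit of the 14 liver libraries. Numbers after ± are standard errors of log2 changes, and changes given without one are log2 changes of FPKM + 1. Small RNAs, whose genes are under 300 nt, took 98.5% to 99.8% of summed FPKM, so levels are not shares of messenger RNA.

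The comparison, the 27 pathway lists, the 13 marker lists and the rules were chosen with earlier results of these data known, so counts over them are descriptions. Genes named are the 10 largest called rises and falls whose groups do not overlap (without predicted genes and genes under 300 nt), from each list with at least 3 called members the 4 or fewer of smallest p, all called members of lists with 1 or 2, Sucnr1 and Sdha to Sdhd, and other called succinate genes; some genes that these rules name are not reported here. Another 30 genes were chosen after their values were seen: Acadm, Alg12, Apoa1, Arntl, Cps1, Cpt1a, Creld2, Cux2, Cyp2b9, Cyp3a11, Cyp7a1, Dbp, Derl3, Ehhadh, Fdps, Fgf21, Hsp90b1, Hspa5, Manf, Mvd, Otc, Per1, Per3, Ppara, Scd1, Slc25a10, Srebf1, Srebf2, Tef and Thrsp. Egr1 was also named after its values were seen. Further genes are named in the text outside the rules, among them Fabp1, Igf1, Igfals and Ndufs8. Coordinates of genes are those of GENCODE M21, and promoter windows those of RefSeq. Alternatives were a pseudocount of 0.1, other filters on low values, other scalings, array weights, no trend, a replicate block, each library left out in turn, and, added after the data were seen, leaving out genes listed at 0 and HFD-IF library 1.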

Additional observations from a re-analysis of the deposited data

Results flagged for a closer look

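Within a group of 4 livers, a value was picked out where its gap to the nearest other value was a larger share of the group's range than the 95% critical value of Dixon's test. Of 318 gene groups checked 16 were picked out, and chance gives about 1 in 20.

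HFD library 1 held 5 of the 16. It was highest in its group for Alg12 (8.05 FPKM), C3 (2350 FPKM) and Kynu (135 FPKM) and lowest for Ces1d (186 FPKM) and Plin2 (296 FPKM). HFD library 2 was lowest for Sdhc (166 FPKM). HFD library 3 was highest for Cyp2a4 (2.17 FPKM) and lowest for Alb, listed at 0.

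Among the CC-IF livers, library 1 was highest for Acaa1a (173 FPKM), Cfd (0.521 FPKM) and Haao (296 FPKM) and library 0 for Ifit1 (2.87 FPKM), Pck2 (3.79 FPKM) and Stat2 (17.3 FPKM). Library 2 was lowest for Cdh5 (9.01 FPKM) and Mt2 (24.4 FPKM). Of these genes Pck2, Ifit1 and Stat2 were called with library 0 left out.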

How the results depend on the processing

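The counts of 1485 higher and 1294 lower genes stayed within 1.5 times under every alternative run: 1219 to 1690 higher and 1008 to 1411 lower, and 1032 to 1343 higher and 897 to 1157 lower without each library in turn, with the lowest counts without HFD library 0. The count of at least 2-fold changes, 338, was 477 with a pseudocount of 0.1, as that scale shrinks low genes less. No called gene changed direction among those that the naming rules gave and the 30 chosen after their values were seen. Changes of sign in genes that were not called were not recorded. Of 126 called genes that the naming rules gave, 104 passed without each library in turn and 22 did not in at least 1 case. Of the called genes among the 30 chosen after their values were seen, Scd1, Arntl and Cps1 did not. Some other genes named in the text are outside these counts. They include Egr1, Fabp1, Igf1, Igfals and Ndufs8, whose calls also depended on single libraries. The count against CC, 2755, was 2996 in a fit of those groups alone and 1981 to 2684 without single libraries. The count of 69 against HFD-IF was 5 in a fit of those groups alone, 11 without HFD-IF library 1, and 1 to 1696 over the libraries left out in turn (1 without CC-IF library 1 or 3, 1696 without HFD-IF library 0).

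With the column number as a replicate block 1219 genes were higher, 1076 lower and 343 changed at least 2-fold. Same-numbered CC-IF and HFD columns had correlations of 0.189, -0.023, 0.034 and -0.046 between their deviations from the group means. The sources used here do not say what the number stands for. Whether same-numbered columns share a batch was not tested. With the block, ribosomal protein genes higher were 19 (33 without it), urea cycle and amino acid genes higher 4 (8), bile acid genes higher 4 (7), male-biased genes lower 9 (5) and Kupffer cell markers lower 5 (2).

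Depth is known only as an estimate, FPKM gives no counting error, and a listed 0 can be a failed estimate, so a low level here is not a limit on the RNA present.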
